A study of Homo sapiens with 6 samples.

Results

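The let-7 3p strands are the mature miRNAs cut from the 3′ side of the let-7 hairpins. The 10 strands described here were taken by name from the 2588 miRNAs of the count tables, where each carries the prefix hsa: hsa-let-7a-3p, hsa-let-7a-2-3p, hsa-let-7b-3p, hsa-let-7d-3p, hsa-let-7e-3p, hsa-let-7f-1-3p, hsa-let-7f-2-3p, hsa-let-7g-3p, hsa-let-7i-3p and hsa-miR-98-3p. They were measured by small RNA sequencing in A549, a human lung adenocarcinoma cell line, carrying a doxycycline-inducible short hairpin RNA against METTL1, an enzyme that places N7-methylguanosine (m7G) on RNA. All 6 libraries came from cells with METTL1 knocked down, on day 5 of doxycycline at 200 ng/ml. In 3 libraries total RNA was sequenced (the input), and in the other 3 the RNA recovered by an antibody against m7G (m7G-RIP). The RNA had been decapped and heat-denatured before the antibody was added, and bound RNA was eluted with 7-methyl-GTP. Libraries from METTL1-proficient cells or from a control antibody were not analysed here, so the values set antibody-bound RNA against input, and what METTL1 itself changes was not measured.

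A let-7 primary transcript is cut by DROSHA into a hairpin and by DICER1 into a short duplex. The 5p strand of that duplex is usually loaded into an Argonaute protein as the guide, which represses targets such as HMGA2, RAS genes and LIN28 through its seed, and the 3p strand is usually discarded as the passenger. The let-7 guides restrain proliferation and are often low in lung cancers.

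The 3p strands are shown first because, unlike the guides, they do not have 1 seed in common. RefSeq (GRCh38.p14) held a mature sequence for 9 of the 10 members, and let-7f-2-3p is described by name only. In the sequences below, written 5′ to 3′, capitals mark the seed, bases 2 to 8.
let-7a-3p: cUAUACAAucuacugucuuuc
let-7b-3p: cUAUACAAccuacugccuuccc
let-7f-1-3p: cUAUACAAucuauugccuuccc
miR-98-3p: cUAUACAAcuuacuacuuuccc
let-7d-3p: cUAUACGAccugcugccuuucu
let-7e-3p: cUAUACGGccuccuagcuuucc
let-7a-2-3p: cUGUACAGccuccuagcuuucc
let-7g-3p: cUGUACAGgccacugccuugc
let-7i-3p: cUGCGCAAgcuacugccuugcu
The first 4 share the seed UAUACAA, let-7a-2-3p and let-7g-3p share UGUACAG, and let-7d-3p, let-7e-3p and let-7i-3p each have a seed of their own. By contrast, the 5p partners all carry the seed GAGGUAG, as in the guides of the hairpins whose 3p arm passed the test against the 5p arm below.
let-7b-5p: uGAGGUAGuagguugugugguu
let-7e-5p: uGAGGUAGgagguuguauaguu
let-7a-5p: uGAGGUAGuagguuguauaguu
let-7e-3p and let-7a-2-3p differ at 2 of 22 bases and have the last 15 bases, gccuccuagcuuucc, in common. let-7b-3p and let-7f-1-3p also differ at 2 bases, and let-7b-3p and let-7a-3p at 3 of the 21 bases compared. The study's methods allowed 1 mismatch and up to 10 equally good positions for a read. How the counting step treated reads that fit more than 1 of these entries is not given in the sources used here. The split between close pairs is therefore uncertain. This holds for the 5p partners too, since let-7e-5p and let-7a-5p differ at 1 base. The arm ratios below use the 5p counts and share this uncertainty.

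The hairpins lie at scattered loci (GRCh38.p14, host genes on the same strand from GENCODE). MIRLET7A1, MIRLET7F1 and MIRLET7D lie on chromosome 9 in exons of the long noncoding RNA MIRLET7A1HG. MIRLET7A3 and MIRLET7B lie on chromosome 22 in exons of MIRLET7BHG, with mature let-7b-3p at 46113745 to 46113766. MIRLET7E is in an intron of SPACA6, with let-7e-3p at 51692838 to 51692859 of chromosome 19. MIRLET7A2 is in an intron of MIR100HG on chromosome 11, MIRLET7G in an intron of WDR82 on chromosome 3, and MIRLET7F2 and MIR98 in introns of HUWE1 on chromosome X. MIRLET7I is on chromosome 12 in an exon of a noncoding transcript. Mature let-7a-3p can come from MIRLET7A1 or MIRLET7A3, and let-7a-5p from those and MIRLET7A2, so an arm ratio of let-7a mixes loci. let-7f-5p likewise serves both let-7f-1-3p and let-7f-2-3p.

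Total RNA libraries held 9155690 to 10753443 miRNA counts and m7G-RIP libraries 2649238 to 3106556. The groups were deposited as separate sets of counts. Any difference in preparation or sequencing between them cannot be told apart from the antibody step. Replicates differed by more than counting noise (chi-square per degree of freedom 16.1 to 76.9). Nothing in the labels says that replicates were separate cultures, so p-values measure the spread between these libraries, which may be technical. The culture text of the m7G-RIP samples describes Caco-2, an intestinal line, although their titles and cell line labels name A549. A list of 12 miRNAs chosen as markers of other tissues had a summed level of 17946 to 18209 CPM (counts per 1000000 miRNA counts) across the input libraries. After m7G-RIP it was 3572 to 3804 CPM, without scaling beyond library size. Most of this was miR-192-5p, abundant in intestine and liver, at 17545 to 17704 and 3445 to 3582 CPM. miR-194-5p and miR-215-5p, listed for the same tissues, had 350 to 455 and 40.9 to 44.5 CPM in the input. After m7G-RIP they had 79.6 to 143 and 5.79 to 7.08 CPM. All of these had counts in every library of both groups. Whether any library came from another cell type was not tested. Hepatic miR-122-5p, haematopoietic miR-142-3p, miR-142-5p and miR-223-3p and muscle miR-206 had no count in any library. The muscle miRNAs miR-1-3p and miR-133a-3p reached higher levels after m7G-RIP in part of the libraries, at 7.54 to 8.18 CPM in the input against 0.644 to 94.1 CPM for miR-1-3p and at 0 to 1.95 against 0 to 41.3 CPM for miR-133a-3p. The part of these differences in the results was not tested.

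The 3p strands were a small pool. Their summed counts were 4203, 3930 and 4186 in the total RNA libraries and 1923, 2063 and 2945 in m7G-RIP. Set against the 5p arms of the same hairpins, this was 3.64 ± 0.0158 3p reads per 1000 5p reads in total RNA and 3.10 ± 0.459 in m7G-RIP (SD, n = 3). Each member had fewer reads than its 5p partner in all 6 libraries, so by read numbers each was the lesser arm. As shares of the library, the members made up 410 ± 40.8 CPM of the input and 807 ± 123 CPM after m7G-RIP, without further scaling (SD, n = 3). The 5p arms took 11.3% ± 1.11 and 26.0% ± 0.206 (SD, n = 3). Such shares depend on the other miRNAs of a library. The abundant miR-21-5p held 445485 to 490260 CPM of the input and 48319 to 50065 CPM after m7G-RIP. Its part in the higher shares was not tested.

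Of the 10 members, 9 passed the filter on low counts, 1 was enriched in m7G-RIP (let-7b-3p), 1 was depleted (let-7e-3p) and 7 passed the test in neither direction (edgeR quasi-likelihood test, Benjamini-Hochberg adjusted over 620 miRNAs). Scaled to library size alone, 5 members were enriched, as were 216 of all 620 miRNAs. That setting moves the median of all miRNAs from -0.07 to 0.48. In the first fit, 23.5% of all 620 miRNAs were enriched and 29.2% depleted. With 9 members, 1 call in each direction is too few to tell apart from these shares. The median log2 ratio of m7G-RIP over total RNA was 0.20 over the 9 members and -0.07 over all miRNAs tested. Among the 252 tested miRNAs named 3p, 18.7% were enriched and 32.1% depleted, and their median was -0.45. The amount of RNA recovered by the antibody is unknown, so a ratio says how a strand stood against the rest of its library. The groups did not overlap for 5 members, with m7G-RIP above total RNA for let-7b-3p, let-7f-1-3p and let-7i-3p and below it for let-7a-3p and let-7e-3p. For all miRNAs tested the same held for 29.5% upward and 36.5% downward.

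**Figure D1:**
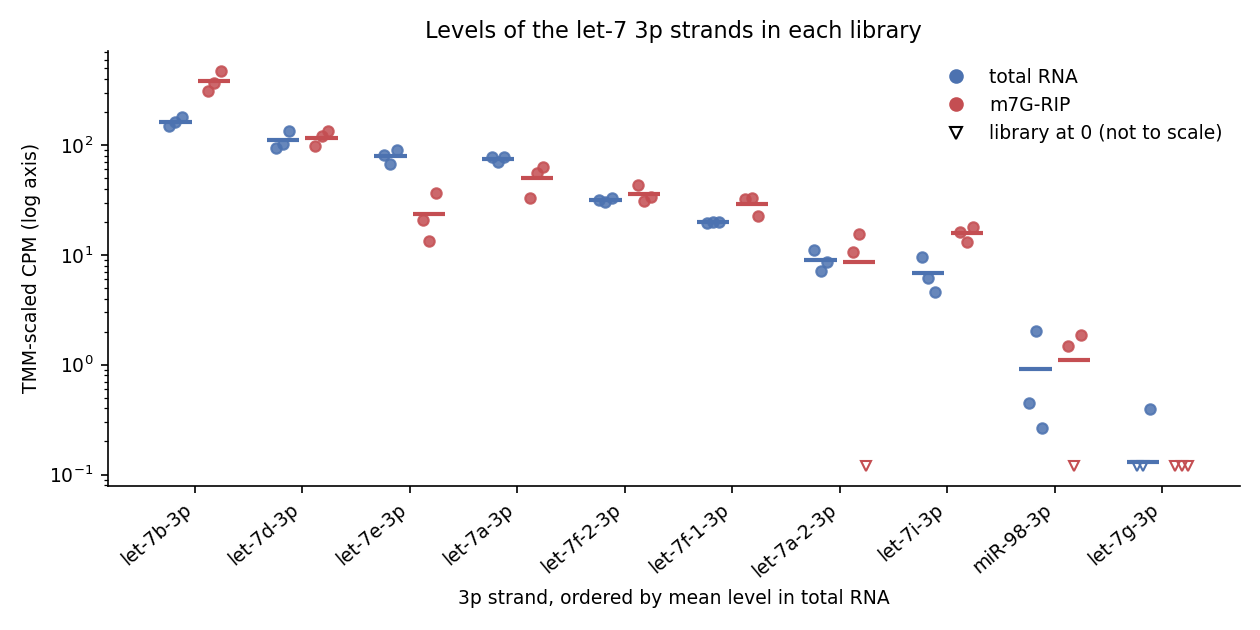
Level of each let-7 3p strand in the 6 libraries, in TMM-scaled CPM on a log axis, with a point for each library, a bar at each group mean and an open triangle for a library at 0. let-7b-3p lies higher and let-7e-3p lower in all 3 m7G-RIP libraries than in all 3 total RNA libraries.

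Levels below are CPM scaled by TMM, the trimmed mean normalization of edgeR. In total RNA the order of mean levels was let-7b-3p (164 ± 16.9 CPM), let-7d-3p (110 ± 20.3), let-7e-3p (79.6 ± 11.1), let-7a-3p (75.2 ± 4.90), let-7f-2-3p (31.6 ± 1.11), let-7f-1-3p (19.8 ± 0.298), let-7a-2-3p (8.95 ± 2.05), let-7i-3p (6.79 ± 2.55), miR-98-3p (0.912 ± 0.965) and let-7g-3p (0.131 ± 0.228; all SD, n = 3). Of these neighbours, let-7e-3p and let-7a-3p overlapped, as did let-7a-2-3p and let-7i-3p, and miR-98-3p and let-7g-3p. In m7G-RIP let-7b-3p (385 ± 84.8 CPM) and let-7d-3p (117 ± 18.9) again came first, and let-7e-3p (23.8 ± 11.98) came after let-7a-3p (50.2 ± 15.6), let-7f-2-3p (36.1 ± 6.60) and let-7f-1-3p (29.2 ± 5.82). let-7d-3p overlapped with neither let-7b-3p nor let-7a-3p, while from let-7a-3p down to let-7e-3p each overlapped the next. let-7i-3p (15.8 ± 2.40), let-7a-2-3p (8.66 ± 7.87), miR-98-3p (1.12 ± 0.987) and let-7g-3p (no count) followed, and here too each overlapped the next.

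let-7b-3p was the most abundant member and the only one called enriched. It had 149, 162 and 182 CPM in total RNA and 312, 366 and 478 CPM in m7G-RIP. The lowest m7G-RIP library lay above the highest total RNA library, and replicate 3 was the highest of each group. The log2 ratio was 1.23 (SE 0.19, edgeR adjusted p = 0.00054), and 0.83 without m7G-RIP replicate 3. Its guide let-7b-5p rose further, by 1.83 on the log2 scale (SE 0.13, edgeR adjusted p = 3.81e-06). The raw counts behind the 3p value were 1316, 1359 and 1384 against 1058, 1167 and 1786. let-7b-3p is on the study's own list of m7G miRNAs dependent on METTL1. That list took miRNAs lower after METTL1 knockdown in A549, so it may rest in part on the input libraries used here. The direction of let-7b-3p here is therefore not independent of that list.

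let-7e-3p went the other way from its guide. It had 80.9, 67.9 and 89.9 CPM in total RNA and 20.9, 13.5 and 36.9 CPM in m7G-RIP, from 71, 43 and 138 counts in the latter. All m7G-RIP libraries lay below all total RNA libraries. The log2 ratio was -1.74 (SE 0.36, edgeR adjusted p = 0.0031), and -2.41 without m7G-RIP replicate 3. let-7e-5p, processed from the other side of the same hairpin, rose by 2.24 on the log2 scale (SE 0.14, edgeR adjusted p = 2.36e-06), the highest of the 8 5p partners.

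let-7a-3p and let-7i-3p did not pass the threshold, though their groups did not overlap. let-7a-3p had 77.6, 69.5 and 78.4 CPM in total RNA and 32.7, 55.3 and 62.6 CPM in m7G-RIP (log2 ratio -0.58, SE 0.26, edgeR adjusted p = 0.093), and without m7G-RIP replicate 3 it was depleted (log2 ratio -1.004, edgeR adjusted p = 0.014). let-7i-3p had 9.59, 6.18 and 4.60 CPM in total RNA and 16.2, 13.2 and 17.9 CPM in m7G-RIP (log2 ratio 1.21, SE 0.47, edgeR adjusted p = 0.055), and passed the threshold under 7 of 16 alternative settings. The latter rests on 35 to 85 counts a library, and its guide let-7i-5p, which had the most reads of the 5p partners in total RNA, stood at -0.13 on that scale (SE 0.09, edgeR adjusted p = 0.24).

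The strands of the MIRLET7F1, MIRLET7F2 and MIRLET7D hairpins differed less between the groups. let-7f-1-3p had 19.5, 19.9 and 20.1 CPM in total RNA and 32.1, 33.0 and 22.5 CPM in m7G-RIP (log2 ratio 0.56, SE 0.29, edgeR adjusted p = 0.14). Its groups did not overlap, but m7G-RIP replicate 3 lay close to the total RNA libraries. let-7f-2-3p had 31.4, 30.5 and 32.7 CPM against 43.6, 31.1 and 33.7 CPM, and these groups overlapped (log2 ratio 0.20, SE 0.26, edgeR adjusted p = 0.54). let-7d-3p, the second most abundant member, had 95.1, 102 and 133 CPM against 97.2, 120 and 135 CPM, overlapping as well (log2 ratio 0.09, SE 0.21, edgeR adjusted p = 0.74). Their guides let-7f-5p and let-7d-5p were enriched by log2 ratios of 0.42 and 0.49 (edgeR adjusted p = 0.011 and 0.013).

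The remaining members had low or uneven counts. let-7a-2-3p had 99, 60 and 65 counts in total RNA and 36, 49 and 0 in m7G-RIP, so its m7G-RIP libraries lay both above and below all total RNA libraries after scaling (log2 ratio -0.05, SE 1.06, edgeR adjusted p = 0.97). Without m7G-RIP replicate 3, the library with no read, it was 0.31 (SE 0.46, edgeR adjusted p = 0.61). miR-98-3p had 4, 17 and 2 counts against 5, 0 and 7 (log2 ratio 0.30, SE 1.22, edgeR adjusted p = 0.84). let-7g-3p had 0, 0 and 3 counts in total RNA and none in m7G-RIP and was not tested. A count of 0 allows up to 3 reads, which is 0.0130% to 0.0144% of the let-7g arm reads of an m7G-RIP library, counting error only. let-7c-3p, the 3p strand of the let-7 hairpin outside the named members, was also scarce, at 13, 5 and 15 counts against 0, 12 and 21 (log2 ratio 1.21, SE 1.20, edgeR adjusted p = 0.42).

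The 5p partners are the guides described above. Of the 8 5p partners, 6 were enriched, none was depleted, and the median log2 ratio was 0.50. let-7a-5p, let-7b-5p and let-7e-5p are, like let-7b-3p, on the study's own list, which may rest in part on these input libraries. Their direction here is not independent of that list, nor are the arm differences below that rest on them. Among all tested miRNAs named 5p, 26.2% were enriched and 32.5% depleted. The other let-7 neighbours, arms of the miR-100, miR-125b-1, miR-99b and miR-125a hairpins that share transcripts with MIRLET7A2 or MIRLET7E, gave 4 enriched and 2 depleted of 7 tested, with a median of 0.52. Of these, miR-125a-5p, enriched here, is also on the study's list.

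**Figure D2:**
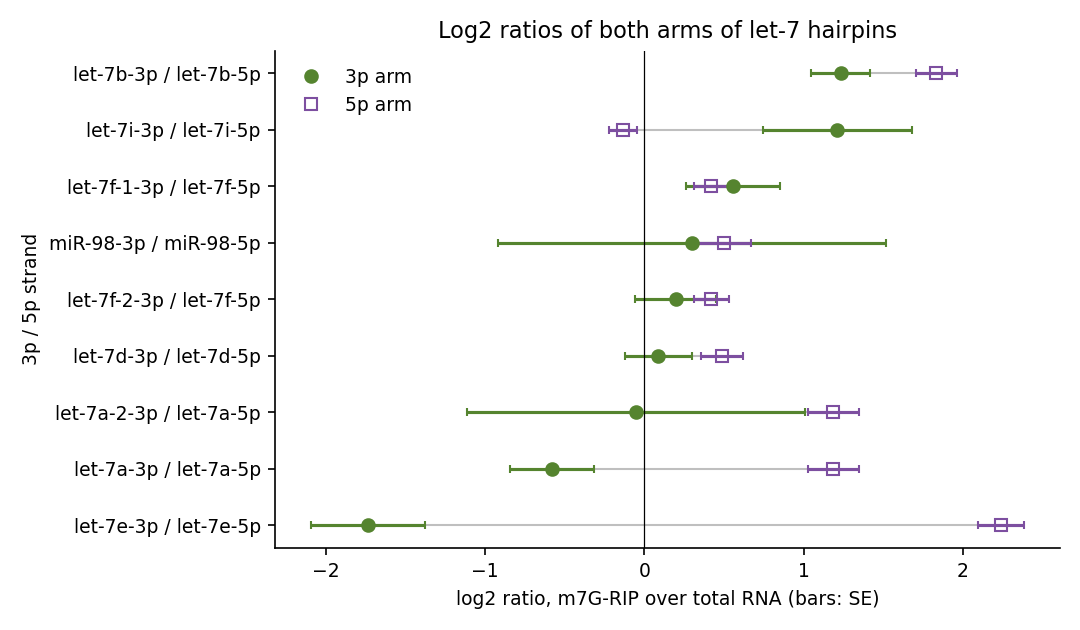
Log2 ratio of m7G-RIP over total RNA for the 3p and the 5p arm of each let-7 hairpin, with SE from the edgeR fit. The let-7e arms lie farthest apart, at -1.74 and 2.24, and the let-7i arms lie in the opposite order, at 1.21 and -0.13.

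The 2 arms of a hairpin were then compared within each library, a ratio that does not depend on how libraries are scaled. Of 8 let-7 pairs with a mean of at least 10 counts in both arms, the 3p arm was below its 5p arm in m7G-RIP, relative to total RNA, for 3 (let-7e, let-7a and let-7b), above it for 0, and neither for 5 (limma, Benjamini-Hochberg adjusted over 162 pairs). Over all 162 pairs, 24.7% were below and 17.9% above. The arm ratios did not overlap between groups for 4 pairs downward (let-7a, let-7b, let-7d and let-7e) and 1 upward (let-7i), against 30.2% and 25.9% of all pairs. The median difference was -0.51 on the log2 scale over the 8 let-7 pairs and -0.36 over all 162.

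let-7e had the largest log2 difference of the 8 let-7 pairs. Its 3p reads per 1000 5p reads went from 16.3 ± 1.90 in total RNA to 1.01 ± 0.376 in m7G-RIP (SD, n = 3). The difference was -4.08 on the log2 scale (SE 0.33, 95% interval -4.85 to -3.31, limma adjusted p = 5.56e-05), a 16.9-fold lower ratio, and it ranked 7 from the lowest of the 162 pairs.

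let-7a-3p fell from 2.18 ± 0.410 to 0.618 ± 0.191 reads per 1000 let-7a-5p reads, a difference of -1.85 (SE 0.31, 95% interval -2.57 to -1.12, limma adjusted p = 0.0026). let-7b-3p fell from 39.7 ± 1.75 to 26.0 ± 1.84 reads per 1000 let-7b-5p reads, a difference of -0.61 (SE 0.14, 95% interval -0.94 to -0.28, limma adjusted p = 0.010), which missed the threshold in an edgeR fit with the 5p count as offset (adjusted p = 0.054). So let-7b-3p was enriched against the library as a whole and lower against its own guide.

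For let-7d, whose 3p arm is the least scarce of the family at 277 ± 20.5 reads per 1000 5p reads in total RNA and 210 ± 24.9 in m7G-RIP, the difference was -0.40 (95% interval -0.83 to 0.02, limma adjusted p = 0.12). let-7i-3p had 0.115 ± 0.0445 and 0.294 ± 0.0538 reads per 1000 let-7i-5p reads, and the difference of 1.41 (95% interval 0.26 to 2.55, limma adjusted p = 0.051) missed the threshold after adjustment, but passed it without m7G-RIP replicate 2 (1.57, limma adjusted p = 0.047). let-7f-1-3p (0.13, 95% interval -0.59 to 0.84) and let-7f-2-3p (-0.23, 95% interval -0.95 to 0.49) spanned 0 in limma's fit, intervals that still allow changes of either sign. let-7a-2-3p had the widest interval (-2.87, 95% interval -6.98 to 1.24, limma adjusted p = 0.22), since m7G-RIP replicate 3 had no read and its value there depends on the pseudocount of 0.5.

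**Figure D3:**
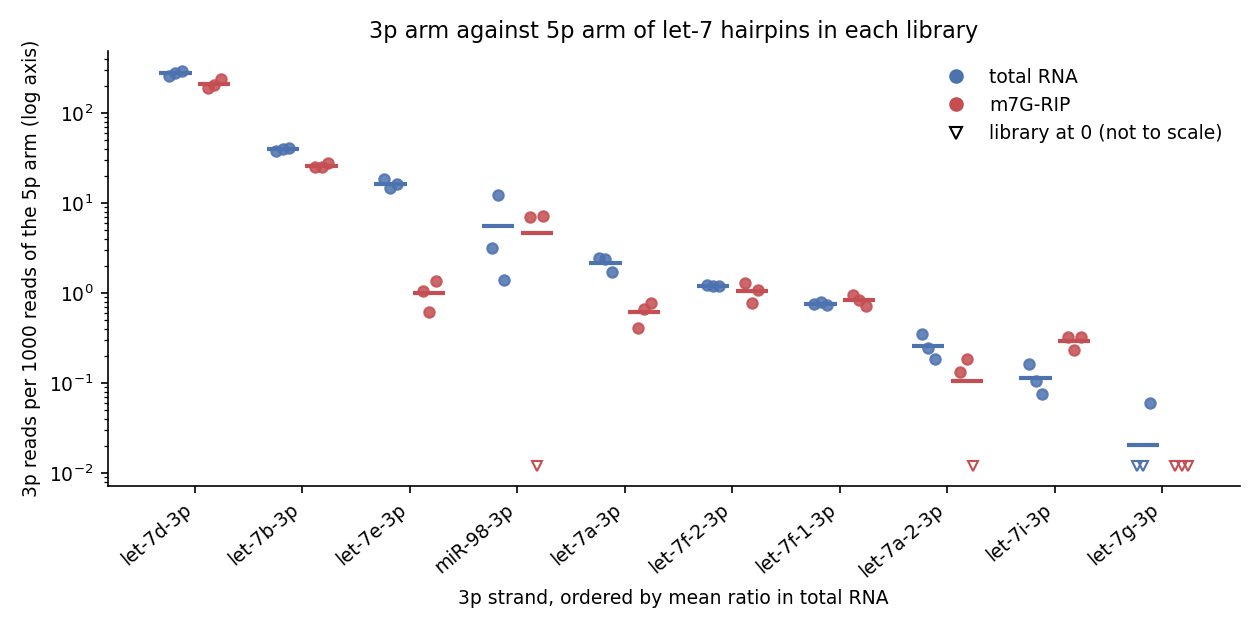
Reads of each 3p arm per 1000 reads of its 5p arm in the 6 libraries, on a log axis, with bars at group means and open triangles for libraries at 0. let-7d has the highest ratio in every library, and let-7e has the largest fold drop among the called pairs, from a mean of 16.3 to a mean of 1.01.

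**Figure D4:**
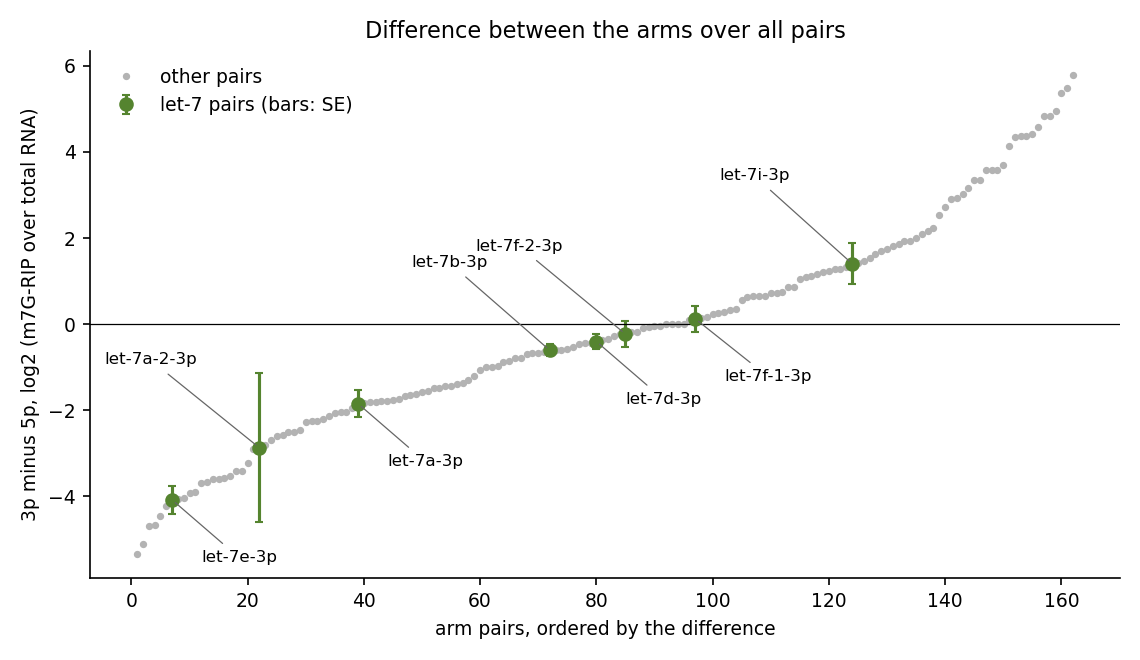
Difference between the arms (3p minus 5p, log2 ratio of m7G-RIP over total RNA) for all 162 pairs in ascending order. The 8 let-7 pairs of the members and their SE are in green, and let-7c is among the other pairs. The let-7 pairs spread from -4.08 for let-7e-3p to 1.41 for let-7i-3p within the range of the other pairs.

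Within the pool of 3p strands the make-up changed. let-7b-3p took 33.0% ± 1.64 of the member reads in total RNA and 57.4% ± 2.91 in m7G-RIP, and let-7e-3p 16.0% ± 1.30 and 3.49% ± 1.31 (SD, n = 3). let-7a-3p went from 15.2% ± 1.09 to 7.42% ± 1.45 and let-7d-3p from 22.1% ± 2.10 to 17.6% ± 0.807. Shares of a pool move against each other, so these values add no separate evidence on each strand.

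Members with like sequence did not always go together. The ratios between members were not planned and were chosen after the data were seen. They set against each other strands whose log2 ratios are given above, so they add no separate evidence. The read ratio of let-7b-3p to let-7a-3p, which share a seed, was 1.91, 2.32 and 2.32 in total RNA and 9.53, 6.63 and 7.63 in m7G-RIP, with no overlap. On the log2 scale the difference was 1.85 (exact two-sided permutation p = 0.1, the smallest that 3 against 3 libraries allow; adjusted over 5 ratios, p = 0.17). let-7b-3p against let-7f-1-3p, 2 bases apart, gave a difference of 0.68 (exact permutation p = 0.1), which was 0.33 without m7G-RIP replicate 3. let-7e-3p against let-7a-2-3p gave -0.19 with an SD of 4.50 in m7G-RIP and cannot be placed (exact permutation p = 1). let-7d-3p against let-7f-1-3p gave -0.45 (exact permutation p = 0.3). The 3p to 5p ratio of let-7e over that of let-7b gave -3.47 (exact permutation p = 0.1).

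m7G is a modification of guanine, and the number of G bases in the members is low. The 8 tested members with a sequence had a median G content of 9.20%, against 36.4% for their 8 5p partners and 27.8% for the 557 tested miRNAs with a sequence. Enriched miRNAs had a median of 39.1% G and depleted ones 22.7%. let-7b-3p has 1 G among 22 bases, as has let-7f-1-3p, and let-7e-3p has 3. Across the 557 miRNAs the log2 ratio and the G content had Pearson r = 0.41 and Spearman rho = 0.44, a description over miRNAs from the same libraries. Across the 8 members Pearson r was -0.0028. Of the 14 tested miRNAs with under 5% G, a limit chosen after the values were seen, 2 were enriched and 4 were depleted. The enriched ones were let-7b-3p and miR-1249-3p (log2 ratio 2.00). Among the depleted ones, miR-365a-3p and miR-365b-3p had identical values, so they are not separate measurements. For all 620 miRNAs tested the shares were 23.5% enriched and 29.2% depleted.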

How the data were processed

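The deposited files hold raw counts per mature miRNA, made by the authors from 50-base single-end reads of NEBNext small RNA libraries with Trimmomatic, an aligner (Bowtie2 in the submitters' processing notes, STAR in the study's methods) and featureCounts against miRBase 22 (GRCh38); versions of the programs are not given in the sources used here. Members and lists were chosen with earlier results of these data known. The named miRNAs are the members, their 5p partners, let-7c, cluster partners as counts, and the 5 miRNAs whose level was most like that of the summed members. Beside these, miRNAs of the tissue marker list are named, as is miR-21-5p, abundant in A549. miR-1249-3p, miR-365a-3p and miR-365b-3p were chosen after their values were seen. Counts were scaled by TMM, filtered with filterByExpr and tested with edgeR 4.0.16 (robust quasi-likelihood F test, R 4.3.3). SE is the log2 ratio over the square root of F. Arms were tested with limma 3.58.1 on log2((3p + 0.5)/(5p + 0.5)) per library, with a mean of at least 10 counts in both arms and a trend on the scarcer arm. The threshold was an adjusted p of 0.05. Both fits were tested on simulated data. Sequences and hairpin positions are from RefSeq, GRCh38.p14, and host genes from GENCODE 44. Alternatives were other scalings, filters, tests (DESeq2 1.42.0, limma-voom), pseudocounts, a fit with the replicate number as a block, and fits with each library omitted. Libraries of 2649238 to 10753443 counts set the counting error, and the limits for a count of 0 cover that only. The intervals of the arm differences come from the limma fit and rest on the spread between libraries.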

Additional observations from a re-analysis of the deposited data

How the results depend on the processing

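let-7b-3p was enriched (log2 ratio 0.83 to 1.78) and let-7e-3p depleted (-2.41 to -1.18) under all 16 alternatives run, and the let-7e arm difference stayed between -4.33 and -3.76. The count of enriched members was 5 with library size alone and 4 with library sizes without the 10 most abundant miRNAs. Of all 620 miRNAs, 216 and 203 were enriched in these settings, and the median moved from -0.07 to 0.48 and 0.38. The member count was 2 with DESeq2 size factors, a minimum of 10 counts, DESeq2's Wald test, edgeR's likelihood ratio test and limma-voom. let-7i-3p was the one added. Over all miRNAs, 148 of 620, 124 of 359, 160 of 620, 169 of 620 and 167 of 620 were enriched there, in that order. Leaving out each library gave 1 to 1 enriched and 1 to 2 depleted (2, adding let-7a-3p, without m7G-RIP replicate 3). With no filter, a minimum of 10 counts or limma-voom, 2 members were depleted. Over all miRNAs, 219 of 1469, 133 of 359 and 219 of 620 were depleted there. Without m7G-RIP replicate 3 it was 235 of 756. No hairpin had its 3p arm above its 5p arm in the analysis as reported. With a pseudocount of 5, 1 did, as did 36 of all 162 pairs. It was 1 with a mean of 50 counts, and 0 to 1 with each library left out (let-7i without m7G-RIP replicate 2, difference 1.57, limma adjusted p = 0.047). Arms below numbered 3 to 3 with each library left out, 2 in an edgeR fit with the 5p count as offset and 4 with a mean of 50 counts, let-7d being added. Values near 0 changed sign: let-7a-2-3p was 0.49 when scaled to library size only, 0.41 when the 10 most abundant miRNAs were omitted from it, and -0.94 to 0.31 with each library left out. With no filter let-7d-3p was -0.19 and let-7f-2-3p -0.065. With each library left out let-7d-3p ran from -0.25 to 0.17, let-7f-2-3p from -0.17 to 0.18 and miR-98-3p from -0.45 to 0.71. In the same way the let-7e-3p to let-7a-2-3p ratio ran from -2.77 to 1.38. Like the other ratios between members, it was chosen after seeing the data. The cause of these changes was not tested. Replicate numbers gave little sign of pairing, with correlations of deviations of -0.0433, -0.101 and 0.0641 over all tested miRNAs. Over the 306 with a mean of at least 100 counts they were 0.0734, 0.0784 and 0.0984. With the number as a replicate block 1 member was enriched and 1 depleted, with 0 arms above and 3 below. let-7g-3p, with 3 counts in all, could not be tested at this depth.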

Other observations

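The miRNAs whose TMM-scaled log2 level over the 6 libraries was most like that of the summed 3p strands, among 352 with at least 10 counts in every library, were miR-125a-5p (Pearson r = 0.977), miR-4435 (0.975), miR-628-3p (0.949), miR-98-5p (0.949) and miR-671-5p (0.942). The 6 libraries fall into the 2 groups compared, and all 5 were higher in m7G-RIP. Their log2 ratios ran from 0.50 to 1.84, so a high r here does not mean a like ratio. How much of r comes from the shift between the groups was not tested. No p is given.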
